A study of Mus musculus with 8 samples.

Results

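Myosins are the motor proteins of actin filaments. The genes described here are those whose symbols name a myosin heavy chain (*Myh*), a myosin light chain (*Myl*) or an unconventional myosin (*Myo*), chosen by symbol and not by any measured value. The deposited tables list 49 such genes, with 70 transcripts, among 24063 genes. They were sorted by known role into 5 brush border members, 7 nonmuscle members, 19 muscle members and 18 other unconventional members.

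Conventional myosin II is built from heavy chains, which carry the motor, and from essential and regulatory light chains bound to the neck of each heavy chain. Phosphorylation of the regulatory chain by myosin light chain kinase or the ROCK kinases switches nonmuscle and smooth muscle filaments on, and a phosphatase switches them off. In kidney tubules, nonmuscle myosin II draws in the cell cortex and apical junctions, while class I, V, VI and VII motors tether membrane to microvillar actin, carry endocytic and recycling vesicles and hold microvilli together. Unconventional myosins bind calmodulin as their light chain in most cases.

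The cultures were tubuloids, in which fragments of mouse kidney tubules (postnatal day 7 to 10 by the labels) form epithelial structures in Matrigel. All 8 carried the genotype Pkd2fl/fl Pax8rtTA TetOCre mTmG, that is, floxed *Pkd2*, a doxycycline-inducible Cre under the control of the tubule gene *Pax8* and a membrane colour reporter, and neither group is labelled as having received doxycycline. The 4 GDNF cultures (numbers 6, 12, 17 and 22) received glial-derived neurotrophic factor, the ligand that drives branching of the ureteric bud, for 24 h, and the 4 control cultures (numbers 3, 7, 14 and 21) did not. All stayed in growth factor medium until RNA was taken on culture day 7. The comparison addresses which myosin genes differ in RNA level some days after the pulse. No source used here says that the cultures came from separate mice, so p-values measure the spread between these cultures only. The cultures are mixtures of cells, and more cells of a type cannot be told apart from more RNA per cell.

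Total counts were 72991721 to 97490625 per culture. The controls 3 and 7 and the GDNF cultures 6 and 12 held *Xist* RNA, and the other 4 held RNA of Y-linked genes, so both kinds were equally divided between the groups. Control culture 3 stood apart in that transcripts over 5000 bp took 8.87% of its counts, against 13.6% to 14.4% in the other controls and 15.1% to 19.0% in the GDNF cultures. Values without this culture are given for the members that passed an unadjusted p of 0.05 and for those that moved most without it. Kidney epithelial marker genes summed to between 682 and 4344 CPM in the controls and between 1198 and 2246 CPM in the GDNF cultures, and stromal fibroblast markers to between 843 and 4094 CPM and between 690.0 and 2887 CPM, so stromal RNA was present in every culture. Proximal tubule markers reached at most 33.9 CPM in sum. CPM here are counts scaled to library size with TMM factors.

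Of the 49 members, 35 had enough counts to be tested, and 27 had a mean of at least 1 CPM. All 5 brush border and all 7 nonmuscle members passed this filter, with 15 of the 18 other unconventional members and 8 of the 19 muscle members. The 14 members that did not pass are 11 of muscle (*Myh1*, *Myh2*, *Myh3*, *Myh4*, *Myh6*, *Myh7*, *Myh8*, *Myh13*, *Myh15*, *Myl2* and *Myo18b*), *Myo1f* and *Myo1g*, which are myosins of leukocytes, and *Myo3a* of hair cells. *Myh8* and *Myh13*, skeletal muscle heavy chains, had 0 counts in every culture. *Myh7*, the slow and cardiac muscle heavy chain, had 25 counts in GDNF culture 12 and 0 in the other 7. No other untested member exceeded 26 counts in a culture. Leukocyte markers summed to between 9.82 and 31.4 CPM over all 8 cultures.

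Levels between genes were compared per length, as RPKM (reads per kilobase of transcript and per unit of library size), taking for each gene its most counted transcript. Light chains led by a wide margin. *Myl6*, the essential light chain of nonmuscle and smooth muscle myosin, was at a mean of 1344 RPKM over the 8 cultures, followed by the regulatory chains *Myl12a* at 517 RPKM and *Myl12b* at 392 RPKM and by *Myl9*, the regulatory chain typical of smooth muscle, at 133 RPKM. The level of *Myl12b* rests on a length of 939 bp and is uncertain, since its GENCODE transcript is over 2069 bases long. The most abundant heavy chain was *Myh9* (nonmuscle myosin IIA) at 31.1 RPKM, ahead of *Myh10* (IIB) at 9.10 RPKM and *Myh14* (IIC) at 0.341 RPKM. Among the unconventional members *Myo1c* (24.6 RPKM) and *Myo1e* (24.1 RPKM) lay within the spread between cultures of each other. *Myo6* at 14.1 RPKM was the highest brush border member, and *Myo1a* at 0.249 RPKM the lowest. The same 10 members ranked highest by the deposited TPM.

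**Figure D1:**
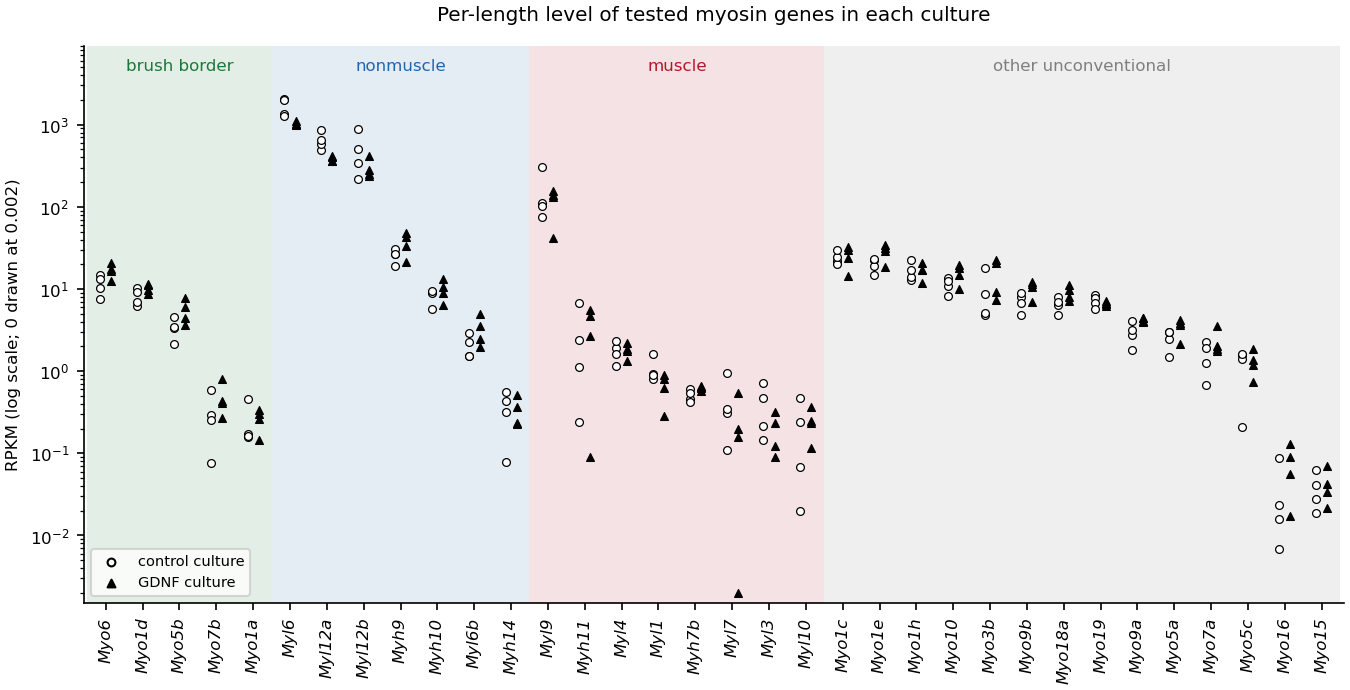
The plot shows the per-length level (RPKM, log scale) of tested myosin genes in each control culture (open circles) and each GDNF culture (filled triangles), by group. The light chains *Myl6*, *Myl12a*, *Myl12b* and *Myl9* lie above every heavy chain and unconventional member in their mean, and *Myh11* spreads most between cultures among the well-expressed members.

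No member passed an adjusted p of 0.05 between GDNF and control cultures when 16557 genes were tested by edgeR and adjusted by the method of Benjamini and Hochberg (0 of 35), as for all genes (0%, with 0.167 as the smallest adjusted p). Without adjustment, 2 members were lower after GDNF at p of 0.05 (*Myl12a* and *Myl6*), or 5.71% of those tested, against 12.9% of all genes. At the same threshold 5 were higher (*Myo6*, *Myo5b*, *Myo18a*, *Myo9a* and *Myo1e*), or 14.3%, against 9.25% of all genes. The count of higher members was 0 without control culture 3 (985 of 16802 genes) and 0 without GDNF culture 12 (924 of 16734 genes). Scaling by library size alone gave 9 members higher and 2 lower, where 3299 of 16557 genes were higher and 850 lower. The median log2 fold change was 0.29 over the 35 members and 0.03 over all genes. DESeq2, the tool named for the study's own comparison, gave no adjusted p for some tested members, *Myh14*, *Myl6b*, *Myo1a* and *Myo7b* among them. It called *Myl12a* and *Myl6* lower at an adjusted p of 0.05 and no member higher, where it called 12.4% of 8610 genes lower and 2.06% higher. The groups did not overlap for the same 2 light chains, in the direction of lower values (6.26% of all genes), and for 0 members in the direction of higher values (6.99% of all genes). In the lower direction the share of members was below that of all genes by the unadjusted p of the main fit, by DESeq2 and by overlap. With library size alone it was not.

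Among the nonmuscle members, the largest differences were in the light chains. *Myl12a* was at 981, 555, 659.5 and 745 CPM in control cultures 3, 7, 14 and 21 and at 464, 413, 477 and 413 CPM in GDNF cultures 6, 12, 17 and 22, an order of cultures kept below. Every GDNF culture lay below every control culture. The log2 fold change was -0.73 ± 0.19 (SE; edgeR adjusted p = 0.167, DESeq2 adjusted p = 0.0209), and the exact permutation test gave p = 0.0286 (two-sided, n = 4 and 4), the smallest that 70 assignments allow. Without control culture 3, the highest, the log2 fold change was -0.57.

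*Myl6* was at 803, 523, 776 and 504 CPM in the controls and at 387, 399, 434 and 398 CPM after GDNF, again without overlap. Its log2 fold change was -0.69 ± 0.19 (SE; edgeR adjusted p = 0.167, DESeq2 adjusted p = 0.0252; exact permutation p = 0.0286, two-sided) and -0.57 without control culture 3. The controls spread far more than the GDNF cultures, with coefficients of variation of 24.5% and 5.05% for *Myl6* and 24.7% and 7.67% for *Myl12a*. Within the cultures with *Xist* RNA the log2 differences were -0.75 for *Myl12a* and -0.72 for *Myl6*, and within those with Y-linked RNA -0.66 and -0.59.

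*Myl12b*, the neighbour and near copy of *Myl12a*, was at 526, 204, 131 and 307 CPM in the controls and 253, 168, 143 and 152 CPM after GDNF. Here the groups overlapped, since control culture 14 was the lowest of all 8. The log2 fold change of -0.71 ± 0.38 (SE; edgeR adjusted p = 0.293) became -0.26 without control culture 3, so this culture carried much of the difference. *Myl6b*, a second essential chain, was low, at 0.997, 1.92, 1.505 and 1.01 CPM in the controls and 3.27, 2.30, 1.28 and 1.63 CPM after GDNF, with a log2 fold change of 0.64 ± 0.38 (edgeR adjusted p = 0.339).

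*Myl12a* and *Myl12b* lie next to each other on the minus strand of chromosome 17 in GRCm38 (chr17:70993793-71002533 and chr17:70973963-70990516 in RefSeq), 3276 bp apart. Their coding sequences, of 519 nt each, are 96.5% identical, and GENCODE M21 has exons of the pair that overlap by 462 bp. *Myl9*, on the plus strand of chromosome 2 (chr2:156775408-156781657), is 85.5% identical to *Myl12a* over the coding sequence. The first 90 coding bases are shown because they tell how far reads can separate these regulatory chains. They are read 5′ to 3′ from GENCODE M21 transcripts, and capitals mark bases that differ from *Myl12a*.
Myl12a: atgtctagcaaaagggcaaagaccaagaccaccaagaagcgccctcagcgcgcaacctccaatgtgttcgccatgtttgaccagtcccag
Myl12b: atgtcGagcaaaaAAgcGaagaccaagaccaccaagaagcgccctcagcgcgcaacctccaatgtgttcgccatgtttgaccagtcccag
Myl9: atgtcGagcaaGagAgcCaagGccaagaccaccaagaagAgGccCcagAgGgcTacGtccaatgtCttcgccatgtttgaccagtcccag
In this stretch *Myl12b* differs at 4 bases and *Myl9* at 13. Over whole transcripts, 64 windows of 75 nt, the length of a read, were the same in *Myl12a* and *Myl12b* (3.44% of those of *Myl12a* and 3.09% of those of *Myl12b*), and none were shared with *Myl9*. How the study's counting treated reads that fit more than 1 gene is not given in the sources used here, so the division between *Myl12a* and *Myl12b* is uncertain to that extent. *Myl6* (chr10:128490859-128493886) and *Myl6b* are neighbours too, 270 bp apart on chromosome 10, and share no such window.

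None of the 3 nonmuscle heavy chains passed an unadjusted p of 0.05. *Myh9* was at 89.9, 128, 147 and 125 CPM in the controls and 102, 204, 229 and 159.6 CPM after GDNF. In 3 of the GDNF cultures it lay above all controls, and culture 6 lay among the controls. The log2 fold change was 0.50 ± 0.25 (SE; edgeR adjusted p = 0.263), and 0.38 without control culture 3. *Myh10* was at 28.9, 45.9, 44.1 and 47.6 CPM and 31.5, 53.1, 66.6 and 44.8 CPM, overlapping widely (log2 fold change 0.24 ± 0.24, and 0.095 without control culture 3). *Myh14* was at 6.98, 5.29, 0.961 and 3.93 CPM and 4.50, 6.37, 2.93 and 2.82 CPM (log2 fold change -0.04 ± 0.52). For *Myh14*, all 4 cultures with *Xist* RNA lay above all 4 with Y-linked RNA, with means 1.23 apart on the log2 scale. It was the 1 member of 35 with such a separation in that direction, against 3.31% of all genes, and 0 members had the opposite separation (2.32% of all genes). The median log2 fold change was 0.24 over the 3 heavy chains (-0.15 with a length trend removed in each culture) and -0.70 over the 4 light chains (-0.38), a difference that was not tested, which gave -0.04 over the 7 nonmuscle members (0.21 with library size alone, where all genes moved to 0.25).

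**Figure D2:**
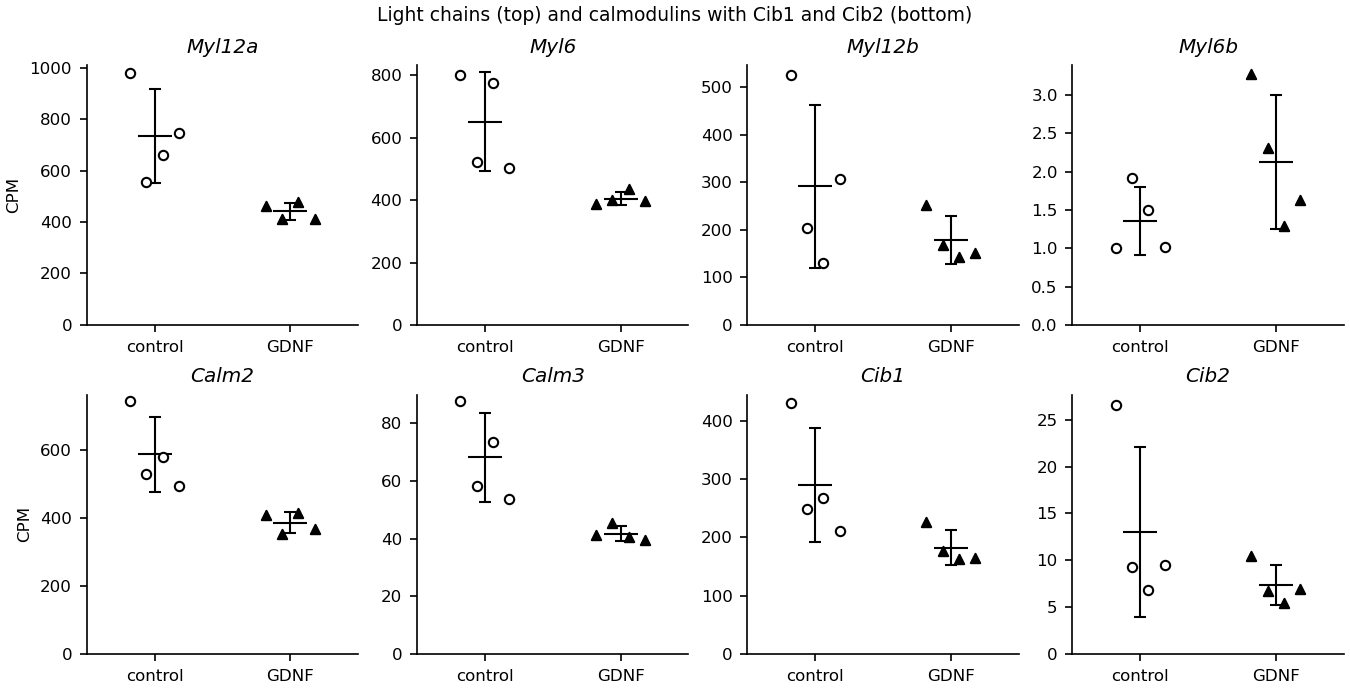
Each panel gives the TMM-normalized CPM of 1 gene in the 4 control cultures (open circles) and the 4 GDNF cultures (filled triangles), with the mean as a bar and the SD as whiskers. *Myl12a*, *Myl6*, *Calm2* and *Calm3* do not overlap between the groups, *Myl12b*, *Cib1* and *Cib2* do, and *Myl6b* is low and higher in its mean after GDNF.

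Calmodulin is the light chain of most unconventional myosins, and its genes *Calm2* and *Calm3* stood with *Myl6* and *Myl12a*. *Calm2* was at 742, 529, 579.8 and 495 CPM in the controls and 409, 352, 414 and 368 CPM after GDNF (log2 fold change -0.60 ± 0.16; edgeR adjusted p = 0.167). *Calm3* was at 87.5, 58.1, 73.5 and 53.8 CPM and 41.1, 45.5, 40.7 and 39.4 CPM (log2 fold change -0.71 ± 0.17; edgeR adjusted p = 0.167). Neither overlapped between the groups, a separation in the lower direction that 6.26% of all genes had. *Cib1*, a calcium-binding protein, had a log2 fold change of -0.66 ± 0.23 (edgeR adjusted p = 0.169) and overlapped. DESeq2 called all of *Calm2*, *Calm3* and *Cib1* lower at an adjusted p of 0.05, as it did 12.4% of all genes with an adjusted p. Of the 5 calmodulin and other light chain genes outside the rule that are reported here, 3 passed an unadjusted p of 0.05 as lower and 0 as higher (12.9% and 9.25% of all genes), and their median log2 fold change was -0.66. Over the whole list of 7 genes, *Myl6b* included, the median was also -0.66, and it was -0.37 with the length trend removed.

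The enzymes that act on the regulatory light chain went both ways. Of 20 tested among 21 kinases, phosphatase subunits and their regulators, 4 were lower at an unadjusted p of 0.05 (12.9% of all genes) and 4 were higher (9.25% of all genes), with a median log2 fold change of 0.22, which was 0.0025 with the length trend removed and 0.42 with library size alone. The lower ones were *Rhoa* (-0.62 ± 0.18) and *Rhoc* (-0.74 ± 0.22), GTPases that activate the ROCK kinases, *Ppp1cb* (-0.56 ± 0.18), the catalytic subunit of myosin phosphatase, and *Ppp1r14b* (-0.62 ± 0.23), a phosphatase inhibitor. The higher ones were the kinases *Cdc42bpa* (0.58 ± 0.20) and *Cdc42bpb* (0.48 ± 0.20) and the myosin-targeting phosphatase subunits *Ppp1r12a* (0.46 ± 0.19) and *Ppp1r12c* (0.50 ± 0.19). None passed edgeR's adjusted p, and DESeq2 called 3 of the lower ones, *Rhoa*, *Rhoc* and *Ppp1cb*. Among 12 tested myosin chaperones and adaptors, 2 were higher and 1 was lower at an unadjusted p of 0.05 (9.25% and 12.9% of all genes). The higher ones were *Unc45a* (0.40 ± 0.15), a folding factor of the myosin head, and *Rab11fip2* (0.39 ± 0.17), which binds myosin Vb. The lower one was the general chaperone *Hsp90ab1* (-0.48 ± 0.20).

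All 5 brush border members had a higher mean after GDNF, with a median log2 fold change of 0.56. A higher mean was also found for 8691 of all 16557 genes tested, and for 2206 of the 2594 with a transcript over 5000 bp. *Myo6*, the motor that walks towards the base of the microvillus and serves apical endocytosis, was at 52.0, 73.5, 38.1 and 65.9 CPM in the controls and 105, 83.0, 63.3 and 87.9 CPM after GDNF. Only GDNF culture 17 fell within the control range. Its log2 fold change was 0.56 ± 0.23 (SE; edgeR adjusted p = 0.196; exact permutation p = 0.0857, two-sided). *Myo5b*, which with Rab11 carries recycling vesicles to the apical surface, was at 14.4, 19.5, 8.97 and 14.8 CPM and at 33.5, 25.5, 15.5 and 18.7 CPM, where cultures 17 and 22 lay within the control range (log2 fold change 0.69 ± 0.29; edgeR adjusted p = 0.205; exact permutation p = 0.114). Within cultures of each kind the log2 differences were 0.60 and 0.57 for *Myo6* and 0.80 and 0.56 for *Myo5b* (with *Xist* RNA and with Y-linked RNA).

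*Myo1d*, a class I motor of the microvillar membrane, was at 21.1, 34.9, 24.0 and 31.9 CPM and 29.5, 39.8, 33.5 and 38.8 CPM (log2 fold change 0.34 ± 0.19; edgeR adjusted p = 0.307). *Myo7b*, which anchors the links between microvillus tips, was at 1.25, 1.08, 0.320 and 2.46 CPM and 3.39, 1.83, 1.13 and 1.72 CPM (0.66 ± 0.57). *Myo1a*, the major class I myosin of the intestinal brush border, reached at most 0.988 CPM in a culture (0.12 ± 0.51). These last 3 overlapped between the groups. Without control culture 3 the log2 fold changes were 0.52 for *Myo6*, 0.69 for *Myo5b* and 0.23 for *Myo1d*. Left out in turn, single cultures moved the median of the 5 members between 0.34 and 0.68. Collecting duct marker genes varied between the same cultures. Of 10 tested among 11, 8 had a higher mean after GDNF (8691 of all 16557 genes). Of these 10, 0 passed an unadjusted p of 0.05, and their median log2 fold change was 0.53. Their sums were 99.1, 105, 24.2 and 54.2 CPM in the controls and 222, 112, 35.3 and 60.2 CPM after GDNF, highest in GDNF culture 6 and lowest in control culture 14, as were *Myo6* and *Myo5b*. The water channel *Aqp2*, a defining gene of that segment, had at most 0.270 CPM. The part of these cells in the brush border values was not tested. Of 16 brush border partner genes, such as the linkers and bundlers of microvillar actin, 15 were tested. At an unadjusted p of 0.05, 0 were higher and 1 was lower (9.25% and 12.9% of all genes). The lower one was *Mpp1* (-0.71 ± 0.21), a membrane scaffold protein. The median log2 fold change of the partners was -0.19 (0.02 with library size alone, where the motors were at 0.77). With a length trend removed in each culture it was -0.23, where the motors were at 0.20.

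**Figure D3:**
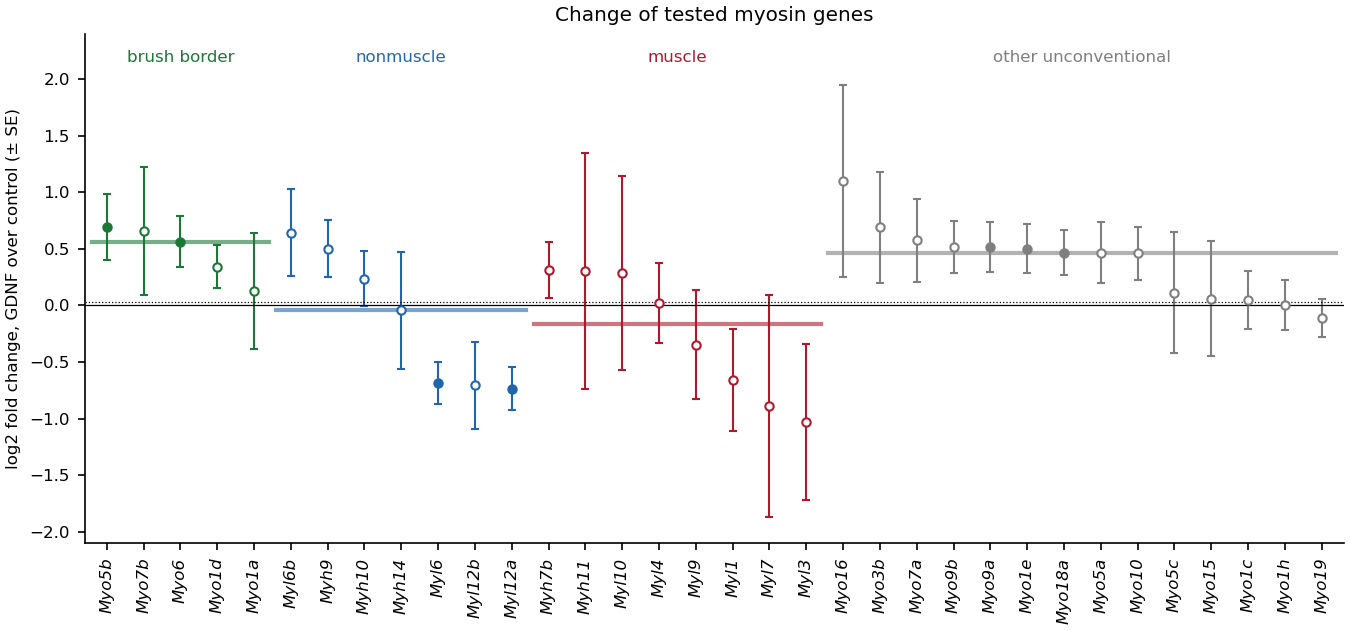
The log2 fold change of GDNF over control (points, ± SE) is drawn for tested myosin genes by group, with filled points for an unadjusted p below 0.05, a thick bar at each group's median and a dotted line at the median of all genes tested. The 5 brush border members lie above 0, as do the other unconventional members drawn except *Myo19*, while *Myl6*, *Myl12b* and *Myl12a* lie between -0.73 and -0.69.

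The smooth muscle members varied more between cultures than between the groups. *Myh11*, the smooth muscle heavy chain, was at 2.05, 9.46, 57.3 and 20.3 CPM in the controls and 0.755, 23.0, 46.5 and 39.9 CPM after GDNF, a 75.8-fold range over the 8 cultures with a log2 fold change of 0.30 ± 1.05 (SE). *Myl9* was at 52.4, 77.8, 212 and 70.9 CPM and 29.3, 95.4, 109 and 91.0 CPM. For *Myl9* the log2 fold change was -0.35 ± 0.48 and turned to 0.28 without control culture 14, the highest. The actins and calponin of smooth muscle followed the same cultures. *Acta2* was at 203, 380.3, 1031 and 415 CPM and 163, 554, 622 and 635 CPM, *Actg2* ran from 5.12 CPM in GDNF culture 6 to 221 CPM in control culture 14, and *Cnn1* from 4.83 to 133 CPM in the same pair. All 13 genes of the smooth muscle and myofibroblast list were tested, 0 passed an unadjusted p of 0.05, and their sum was 2253 to 5552 CPM in the controls and 1575 to 4049 CPM after GDNF. Their part in the levels of *Myh11* and *Myl9* was not tested.

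**Figure D4:**
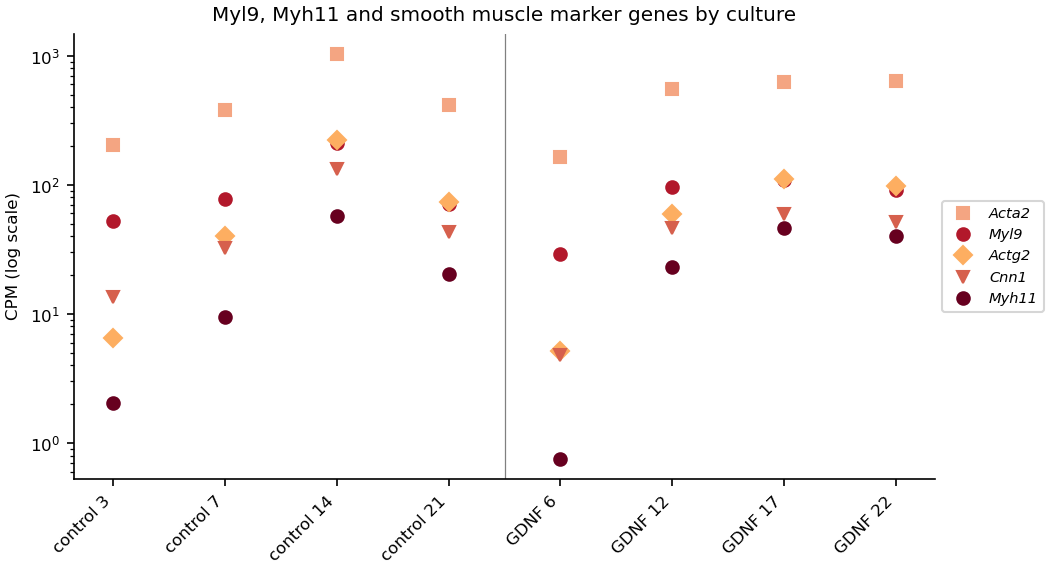
TMM-normalized CPM (log scale) of *Myl9*, *Myh11* and the smooth muscle marker genes *Acta2*, *Actg2* and *Cnn1* are shown in each of the 8 cultures, controls left of the line and GDNF cultures right. All 5 genes are lowest in GDNF culture 6 and highest in control culture 14.

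The CArG box, the element bound by serum response factor in muscle and cytoskeletal genes, was searched for on both strands of the 250 bases before RefSeq starts, with the GC box GGGCGG and the TATA box TATAAA. It was found before 6 of the 43 members for which a start was listed (*Myl9*, *Myl3*, *Myl6*, *Myl7*, *Myh4* and *Myo1e*), in 11.1% of 54 stretches, and in 1.47% of 32851 starts of all genes. The box of *Myl6* lies before the second of its listed starts, inside the gene. The GC box was in 42.6% of member stretches and 32.7% of all, and TATAAA in 18.5% and 12.4%. *Myl9* is shown as the smooth muscle member with a box, printed in capitals. The stretch (chr2:156775214-156775407, plus strand, RefSeq GRCm38.p6) ends before the first annotated exon base, and the box begins 105 bases before that end and 161 bases before the start listed in RefSeq's promoter table, which lies inside the exon.
Myl9: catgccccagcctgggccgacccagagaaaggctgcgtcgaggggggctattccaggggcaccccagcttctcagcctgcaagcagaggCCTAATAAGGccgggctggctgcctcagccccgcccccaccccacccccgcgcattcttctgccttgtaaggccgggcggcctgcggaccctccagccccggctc
Members with a box did not share a direction. The log2 fold change was -0.35 ± 0.48 (SE) for *Myl9*, -0.69 ± 0.19 for *Myl6* and 0.50 ± 0.22 for *Myo1e*. It was -1.03 ± 0.69 for *Myl3* and -0.89 ± 0.98 for *Myl7*, which had at most 39 and 26 counts in a culture. *Myh4* was not tested.

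Striated muscle members were low, and most were close to the limit of detection. *Myh7b*, with 129 to 262 counts in a culture, and *Myl4*, with 63 to 123, lay above it. The 6 tested were *Myl4*, *Myl1*, *Myh7b*, *Myl7*, *Myl3* and *Myl10*, with group means of at most 2.46 CPM and log2 fold changes between -1.03 and 0.31, of which none passed an unadjusted p of 0.05. *Myl4*, the embryonic and atrial essential chain and the highest of them per length at 1.77 RPKM, was at 1.08, 0.658, 1.31 and 0.917 CPM in the controls and 0.744, 0.987, 1.25 and 1.04 CPM after GDNF (log2 fold change 0.02 ± 0.36). The median log2 fold change of the 8 tested muscle members was -0.16 (0.05 with library size alone), and between -0.31 and 0.23 with single cultures left out.

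Of the 15 other unconventional members tested, 14 had a higher mean after GDNF, and the median log2 fold change was 0.46. Among all genes, 8691 of 16557 had a higher mean, and 2206 of the 2594 with a transcript over 5000 bp. *Myo18a*, which links the Golgi membrane to actin, was at 145, 177, 108 and 154 CPM in the controls and 216, 251, 181 and 159 CPM after GDNF (log2 fold change 0.47 ± 0.20; edgeR adjusted p = 0.205). GDNF culture 22 lay below control culture 7, and the other 3 lay above every control. *Myo9a* and *Myo9b* carry a GTPase-activating domain that switches off *Rhoa*. *Myo9a* was at 13.9, 31.4, 21.3 and 24.0 CPM and 30.1, 31.0, 34.2 and 34.2 CPM (0.52 ± 0.22; edgeR adjusted p = 0.214), and *Myo9b* at 66.7, 113, 126 and 94.6 CPM and 95.9, 169, 147 and 159.99 CPM (0.52 ± 0.23; edgeR adjusted p = 0.228). In both, control culture 3 was the lowest, and without it the log2 fold changes were 0.34 and 0.36. For *Myo18a* the value without that culture was 0.46.

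*Myo1e*, a class I motor at podocyte and epithelial junctions, was at 46.6, 72.1, 60.1 and 74.0 CPM and 59.0, 90.8, 99.3 and 109 CPM, with culture 6 alone among the controls (0.50 ± 0.22, and 0.38 without control culture 3; edgeR adjusted p = 0.215). *Myo10*, the motor of filopodia, was at 42.1, 56.9, 71.4 and 64.7 CPM and 51.9, 76.5, 102 and 93.9 CPM (0.46 ± 0.23; edgeR adjusted p = 0.267). *Myo1c*, the highest of this group per length, was at 219, 201, 245 and 302 CPM and 139, 302, 324 and 236 CPM, and the groups covered much the same range (0.05 ± 0.25). *Myo3b*, known from stereocilia, was at 19.3, 72.96, 20.2 and 34.9 CPM and 36.6, 89.8, 29.1 and 82.2 CPM (0.69 ± 0.49). This value was 1.26 without control culture 7 and 0.48 without control culture 3, and the group's median was 0.33 without control culture 3. The member with a lower mean was *Myo19*, a mitochondrial myosin (log2 fold change -0.11 ± 0.17). The level of *Myo1h* (16.5 RPKM) is uncertain, since 20.3% of its exon bases overlap the gene *Kctd10* on the other strand and counting by strand is not stated.

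Direction went with transcript length, in the members and in all genes. Of 21 tested members with a transcript over 5000 bp, 20 had a higher mean after GDNF, and of 9 under 1500 bp, 6 had a lower one. Over the whole set of genes, 2206 of 2594 over 5000 bp had a higher mean, and 2419 of 3605 under 1500 bp a lower one. Among all genes tested, the median log2 fold change was 0.34 over 5000 bp (2594 genes, 599 higher and 34 lower at an unadjusted p of 0.05) and -0.32 under 1500 bp (3605 genes, 96 higher and 1018 lower). Transcripts under 1500 bp took 26.5% to 38.1% of counts in the controls and 23.2% to 27.5% after GDNF, and those over 5000 bp took a larger share in every GDNF culture than in any control. Across the 35 members the Spearman rank correlation of log2 fold change and length was 0.59, and across all genes 0.38, with all points from the same 8 libraries. The brush border and other unconventional members have long transcripts, and the light chains short ones, so group and length are largely the same division here.

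With a length trend fitted and removed in each culture, the median log2 fold change was 0.20 in brush border, -0.37 in nonmuscle, -0.07 in muscle and 0.06 in other unconventional members, and -0.03 over all genes. *Myl12a* remained lower at -0.60 (unadjusted p = 0.00193 by edgeR). Its transcript of 1779 bp is longer than those of the other light chains by the lengths used in this fit. That order depends on the annotation for *Myl12b*, taken at 939 bp here. In the GENCODE transcripts *Myl12b* has 2069 windows of 75 nt and *Myl12a* 1863. *Myl6* was at -0.37 and *Myo6* at 0.20, neither past an unadjusted p of 0.05, and *Myl6b* was at 0.86 (unadjusted p = 0.0468 by edgeR). No member passed an adjusted p of 0.05 in that fit either (smallest 0.215). Whether the length trend arose in the cells or in the preparation of RNA and libraries was not tested.

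**Figure D5:**
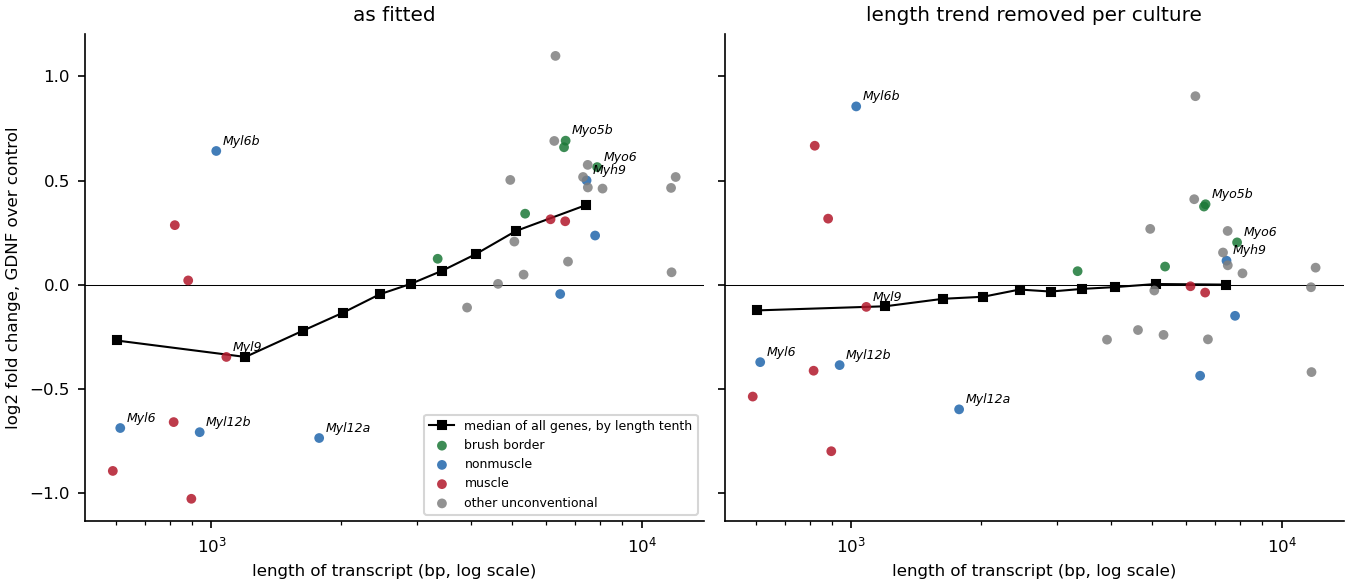
The log2 fold change of GDNF over control is plotted against transcript length (bp, log scale) for the 35 tested myosin genes (coloured by group), with black squares for the median of all genes tested in each of 10 length classes, as fitted (left) and with the length trend of each culture removed (right). On the left the squares run from -0.27 and -0.35 in the shortest classes to 0.38 in the longest. Members over 5000 bp lie mostly above 0, and those under 1500 bp spread from -1.03 (*Myl3*) to 0.64 (*Myl6b*). On the right *Myl12a* stays lowest among the nonmuscle members.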

How the data were processed

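RNA-Seq of 8 tubuloid cultures, 4 with a GDNF pulse and 4 controls, was analysed. The authors made SMART-Seq v4 libraries with poly-A selection and sequenced 75 nt paired ends in 2 lanes, and the lane of each culture is not given in the sources used here. STAR, featureCounts and DESeq2 are named in the submitters' processing notes, with the build mm10 (GRCm38) and no versions. The counts deposited by the authors are whole and not normalized, 1 per RefSeq transcript. The FPKM values deposited by the authors were used only for transcript lengths (a whole length to within 0.01 bp for 100% of detected transcripts). TPM as deposited served for ranks and to tell cultures with *Xist* from those with Y-linked RNA, by whichever was higher.

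Counts were summed per gene symbol, which counts a read again for each transcript it fits, and one transcript per gene was an alternative. edgeR 4.0.16 in R 4.3.3 (filterByExpr, TMM, glmQLFit, glmQLFTest) tested 16557 genes with Benjamini-Hochberg adjustment over all of them, and SE is the log2 fold change over the square root of F. The test was run on simulated counts of these 16557 genes for the GDNF comparison, where edgeR called 13% of 200 genes changed 2-fold and 79% of those changed 4-fold, and DESeq2 46% and 86.5%, with 3.70% and 2.47% false calls for edgeR and 27.6% and 25.8% for DESeq2. RPKM used TMM-normalized counts of each gene's most counted transcript (highest mean over the cultures). Single values were compared over all 70 assignments of cultures to groups. Culture numbers are not shared between the groups. No source used here says whether a control and a GDNF culture came from the same preparation. All tests therefore treated the cultures as unpaired. Members, groups and lists were chosen with earlier results of these data known.

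Full values are given for the 12 members with the smallest unadjusted p, every tested brush border, nonmuscle and smooth muscle member, and the highest member per length of every other subgroup. 1 member and 1 other light chain gene are not reported here on their own. Other members are given by range and count, and of the other lists at most 4 members with an unadjusted p of 0.05. Alternatives were DESeq2 1.42.0, RLE or library size scaling, no filter, one transcript per gene, a term for *Xist* or Y-linked RNA, a per-culture spline (5 degrees of freedom) on log transcript length, an adjusted p of 0.1, and leaving out each culture. Figures were drawn with Python 3.11.15 and matplotlib 3.10.9. Loci and upstream bases are from RefSeq GRCm38.p6, and exons and transcripts from GENCODE M21.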

Additional observations from a re-analysis of the deposited data

Results flagged for a closer look

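In 2 of the 44 groups of 4 cultures examined (22 named members in each of 2 groups), 1 culture stood far from the other 3 by Dixon's test at 95%. Chance alone gives about 1 such group in 20. *Myl9* was at 212 CPM in control culture 14, against 77.8 CPM in the next highest control. *Myo1a* was at 0.988 CPM in control culture 21, against 0.374 CPM in the next highest. Both are highest-value cultures among controls, and neither gene passed any test between the groups.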

How the results depend on the processing

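The count of members called at an adjusted p of 0.05 was 0 by edgeR under each alternative run, an adjusted p of 0.1 included, and 2 by DESeq2 (*Myl12a* and *Myl6*). The count higher at an unadjusted p of 0.05 was 5, and it was 3 by DESeq2, 3 with RLE size factors, 9 with library size only, 1 with the length trend removed and 0 to 7 with single cultures left out (0 without control culture 3 or GDNF culture 12, 2 without control culture 14 or 21 or GDNF culture 22, and 3 without GDNF culture 17). The count lower was 2, and it was 1 with the length trend removed and 2 to 3 with single cultures left out. Over all 16557 genes tested, 1531 were higher and 2134 lower in the main fit. The counts were 1230 and 2327 with RLE size factors, 3299 and 850 with library size only, and 931 and 1990 with the length trend removed. By DESeq2 they were 1484 and 2522. With single cultures left out, 871 to 1713 genes were higher and 1321 to 2577 lower. The length trend removed moved the median of the nonmuscle members to -0.37 and that of the other unconventional members to 0.055. With single cultures left out, these medians ran from -0.38 to 0.10 and from 0.33 to 0.55, the brush border median from 0.34 to 0.68 and the muscle median from -0.31 to 0.23, the last value without control culture 14. Scaling by library size moved the median of all genes to 0.25, and that of brush border, nonmuscle, muscle and other unconventional members to 0.77, 0.21, 0.05 and 0.66.

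Among the members given full values, log2 fold changes of 7 turned sign under an alternative. *Myh14* was at 0.21 with library size only and 0.029 with the term for *Xist* or Y-linked RNA, and *Myh10*, *Myh11* and *Myo1c* were at -0.15, -0.037 and -0.24 with the length trend removed. With single cultures left out the ranges were -0.077 to 1.37 for *Myh11*, -0.38 to 0.29 for *Myh14*, -0.13 to 0.19 for *Myl4*, -0.57 to 0.28 for *Myl9*, -0.034 to 0.62 for *Myo1a* and -0.10 to 0.25 for *Myo1c*. Members outside that set turned sign too. With the length trend removed, *Myo5a*, *Myh7b*, *Myo15*, *Myo1h* and *Myo5c* were at -0.012, -0.0070, -0.42, -0.22 and -0.26. Each of them had a higher mean after GDNF in the main fit. *Myl12a* and *Myl6* were lower under every alternative run. The cause of these shifts was not tested. No paired analysis was run because the labels pair no cultures, and whether cultures of the 2 groups share a preparation was not tested. The number of cultures (4 a group) and the spread of 36.8% between cultures limit which differences could be called, and members under 1 CPM rest on few counts.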
